A study of Mus musculus with 27 samples.

Results

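The 10 genes described here encode proteins of the BCL2 family, which set the threshold at which a cell commits to mitochondrial apoptosis. They were taken by gene symbol from a count table of 54532 genes, in a choice made with earlier results of these data known. The prosurvival members were Bcl2, Bcl2l1 (BCL-XL), Mcl1, Bcl2a1b and Bcl2a1d (both A1). The BH3-only members were Bcl2l11 (BIM), Bbc3 (PUMA), Pmaip1 (NOXA) and Bmf, and the effector member was Bax.

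In the first RNA-seq experiment, wild-type (WT) B cells from C57BL6 spleen were cultured for 3 h in 5 groups with 4 libraries each. These were unstimulated B cells, B cells that received LPS (lipopolysaccharide, a T-independent stimulus) or IL-4+anti-CD40 (a T-dependent stimulus), and B cells given either stimulus with 1 uM disulfiram (DSF, an alcohol-aversion drug). A second experiment held 7 libraries, 1 per condition, and added 1 uM ibrutinib, an inhibitor of the kinase BTK, with each stimulus. All groups without an inhibitor received the DMSO vehicle, and B cells had been enriched from splenocytes by negative selection, which leaves the cells untouched but may leave other cell types behind. The comparisons asked what each stimulus did to the genes and what DSF did on top of it.

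Prosurvival proteins hold the effectors BAX and BAK in check at the mitochondrial membrane. BH3-only proteins are produced or released under stress, bind the prosurvival proteins and so free the effectors, with NOXA binding mainly MCL1 and A1, and BIM and PUMA binding all prosurvival members. In B cells, BCL2 and MCL1 keep resting cells alive, activated cells induce A1 and BCL-XL through NF-κB, and BIM is the main brake on B cell numbers.

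Library totals ranged from 17804851 to 23632992 counts in the first experiment and from 16049295 to 24619776 counts in the second. The lowest count of any member in any library was 61 in the first experiment and 95 in the second. The summed level of 7 B cell markers, in CPM (counts scaled to library size, here after TMM normalization), was 5628 to 8674 in unstimulated libraries, 4747 to 4845 under LPS, 3377 to 3640.1 under LPS plus DSF, 4288 to 4657 under IL-4+anti-CD40 and 3700.4 to 3893 under IL-4+anti-CD40 plus DSF. The summed level of 6 myeloid markers was 540 to 640 CPM in unstimulated libraries, 155 to 177 CPM under LPS, 158 to 169 CPM under LPS plus DSF, 175 to 202 CPM under IL-4+anti-CD40 and 226 to 288 CPM under IL-4+anti-CD40 plus DSF. The summed levels of the T cell, NK cell, erythroid and neutrophil lists did not exceed 38.0 CPM in any of these libraries. That of 4 plasma cell markers was 120.0 to 189 CPM in unstimulated libraries, 99.1 to 104 and 179 to 187 CPM under LPS without and with DSF, and 263 to 266 and 284 to 291 CPM under IL-4+anti-CD40 without and with DSF. The summed B cell markers were thus lower and the summed plasma cell markers higher in all DSF libraries than in their controls. Not every single marker followed its sum. With DSF under LPS, mean Blk went from 234 to 529 CPM and mean Sdc1 from 6.28 to 3.46 CPM. With DSF under IL-4+anti-CD40, Prdm1 rose from 33.0 to 62.9 CPM, whereas Xbp1 went from 227 to 219 CPM. The part of these marker shifts in any result was not tested, and in such bulk samples fewer cells of a type and less RNA per cell cannot be told apart. The labels do not say which libraries came from the same mouse, so p-values measure the spread between these libraries.

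The unstimulated libraries fell into 2 pairs, and the members were among the genes that set the pairs apart. Between replicates 1 or 2 and replicates 3 or 4, from 723 to 746 of 9754 well-counted genes differed at least 2-fold, against 4 genes between replicates 1 and 2 and 16 between replicates 3 and 4. Of the 10 members, 7 differed at least 2-fold between the pairs. Bcl2l11 was at 325 and 333 CPM in replicates 1 and 2 but at 51.7 and 55.9 CPM in replicates 3 and 4, a 6.11-fold difference. Bcl2 went the other way, at 45.3 and 45.4 CPM in the first pair and 168 and 159 CPM in the second pair. Among the members, only Mcl1 had overlapping pairs, with means of 869 and 889 CPM. The share of all genes with pairs that do not overlap was not counted. The median absolute log2 difference over the 9754 genes was 0.27 to 0.28 between the pairs. Within them it was 0.06 for replicates 1 and 2 and 0.09 for replicates 3 and 4. The IL-4+anti-CD40 libraries showed a smaller split along the same numbers (74 to 245 genes between the pairs). Comparisons with unstimulated B cells were therefore made with all 4 libraries and again with each pair alone. The p-values of any fit that keeps 1 pair only leave out the spread between the pairs. The unstimulated library of the second experiment, normalized separately, held 308.5 CPM of Bcl2l11 and 43.5 CPM of Bcl2, close to replicates 1 and 2, but 93.6 CPM of Bmf, nearer to replicates 3 and 4, and 40.3 CPM of Bbc3, above both pairs.

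**Figure D1:**
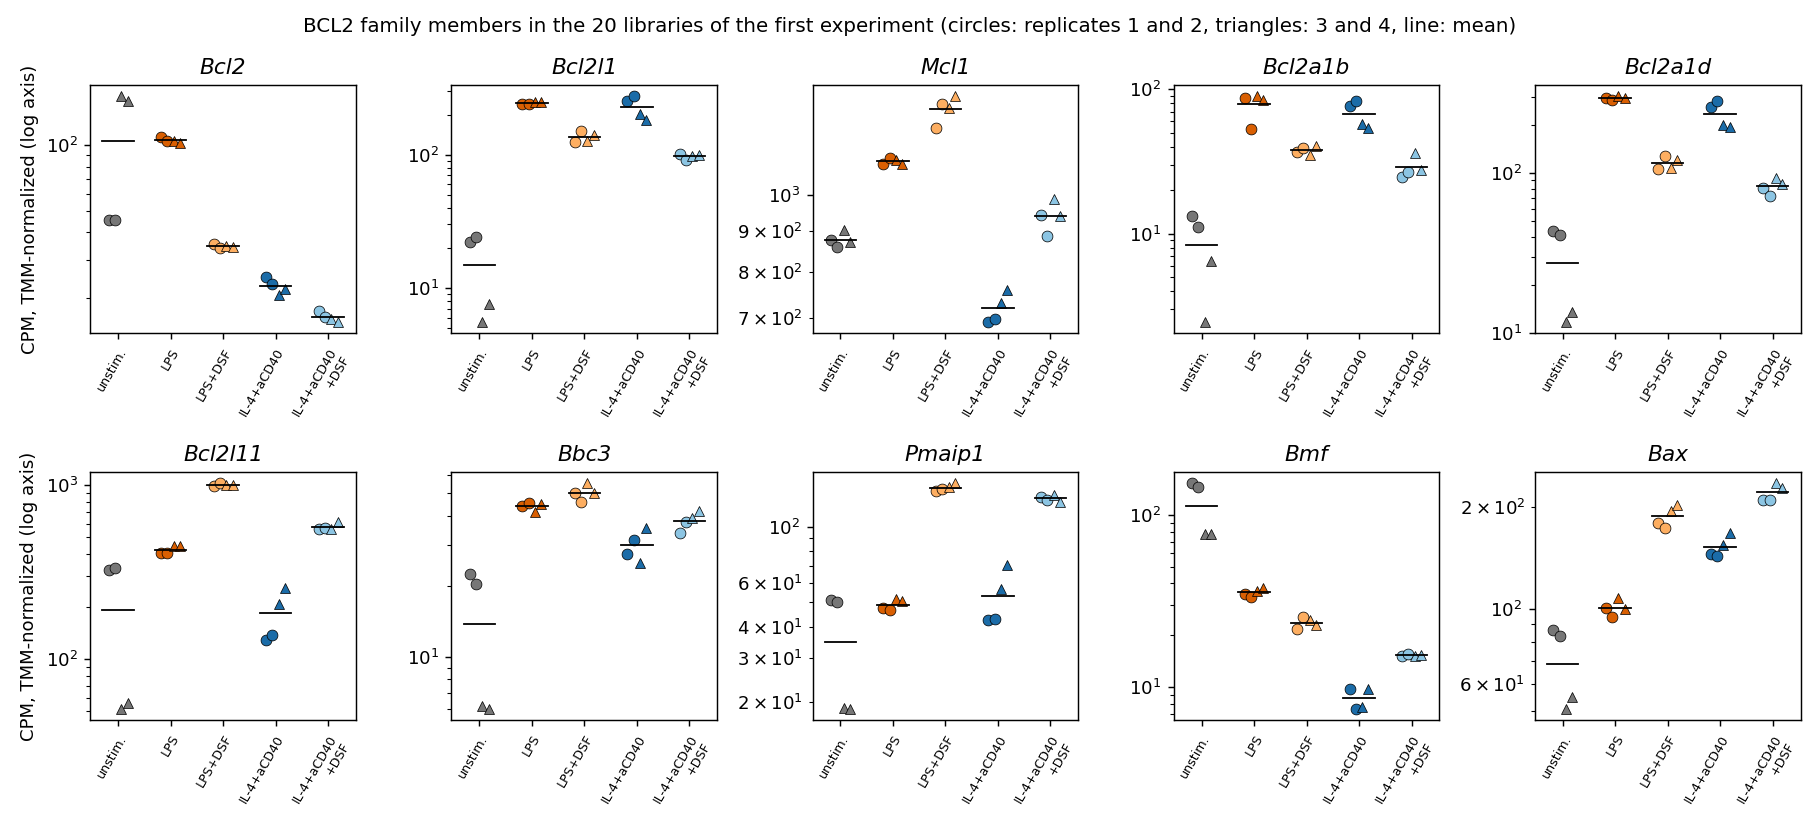
Levels of the 10 members in each of the 20 libraries of the first experiment, as TMM-normalized CPM on a log axis with its own range in each panel, with circles for replicates 1 and 2, triangles for replicates 3 and 4 and a line for the mean of 4 libraries. The unstimulated pairs lie apart for every member but Mcl1, whereas the DSF groups lie apart from their stimulated controls in every panel except that of Bbc3 under IL-4+anti-CD40. The share of all genes that lie apart in these ways was not counted.

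Across genes, levels were compared on the deposited FPKM (fragments per kilobase, scaled to library size), which divide by gene length. In unstimulated B cells Mcl1 was the highest member, with a mean of 257 FPKM and a range of 251 to 267 FPKM, above Bax at 32.4 to 54.7 FPKM, whose range overlapped those of Bcl2a1d and Bcl2l11. After LPS, Bcl2a1d (317 to 333 FPKM) and Mcl1 (301 to 309.5 FPKM) were the highest, and their ranges did not overlap. Under IL-4+anti-CD40, Bcl2a1d was at 221 to 327 FPKM and Mcl1 at 199 to 216 FPKM, again without overlap. With DSF, Mcl1 took first place under both stimuli, at 366 to 390.1 FPKM under LPS and 262 to 291 FPKM under IL-4+anti-CD40. Bcl2 and Bmf were the lowest members in all 4 stimulated groups, with no library above 11.3 FPKM. Neighbours whose ranges overlapped, such as Bcl2l1 (49.4 to 51.4 FPKM) and Bcl2l11 (47.5 to 52.5 FPKM) after LPS, were not told apart.

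The A1 genes are near-identical copies, which bears on how their counts are read. Bcl2a1b (ENSMUSG00000089929, chromosome 9, 89199209 to 89207827, plus strand, mm10) and Bcl2a1d (ENSMUSG00000099974, chromosome 9, 88723285 to 88731914, minus strand) have coding sequences of 516 bases that differ at 6 positions. Another copy, Bcl2a1a, differs from them at 11 and 7 positions. The first 60 coding bases, read from the annotated transcripts, are shown 5′ to 3′ because they hold 6 of the 12 positions at which the copies vary, and these positions are in capitals.
Bcl2a1b: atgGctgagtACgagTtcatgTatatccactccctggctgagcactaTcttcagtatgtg
Bcl2a1d: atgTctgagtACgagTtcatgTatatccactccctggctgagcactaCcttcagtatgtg
Bcl2a1a: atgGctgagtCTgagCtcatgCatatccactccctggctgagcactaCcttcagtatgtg
Of all 100-base windows of the Bcl2a1b transcript, 31.06% occur unchanged in Bcl2a1d and 16.43% in Bcl2a1a, so the split of reads between the copies is uncertain. The strand setting of the counting is not given in the sources used here. Bcl2a1b shares an exon with Gm29094 on the same strand, Bcl2 shares an exon with the antisense gene D630008O14Rik, and Bax shares 5 exons with Gm45808 on the same strand, which leaves these counts uncertain too.

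DSF changed the prosurvival members in opposite directions, lowering 4 of the 5 and raising Mcl1 under both stimuli. The test was edgeR's quasi-likelihood test with Benjamini-Hochberg adjustment over all genes, at a threshold of 0.05, and differences are log2 fold changes of DSF against the same stimulus alone ± SE (4 libraries against 4). Under LPS, all 10 members passed, 5 higher and 5 lower, where 35.1% of all genes tested were higher and 36% lower. Under IL-4+anti-CD40, 6 were higher and 4 lower, where the shares of all genes were 30.1% and 31.6%. Most genes thus passed the test, so the size of a change says more here than its call. Scaling by total counts turned the split of all genes from 4966 higher and 5096 lower to 3473 and 6680 under LPS, and from 4301 and 4514 to 3262 and 5832 under IL-4+anti-CD40, while every member kept its sign. Fold changes come from each pair of groups scaled together, and for LPS the ratio of the CPM printed here lies lower than the fitted log2 value, by a median of 0.12 over the members.

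Bcl2, which protects resting B cells, was at 109, 105, 105 and 102 CPM under LPS and at 35.4, 33.9, 34.8 and 34.2 CPM under LPS plus DSF. The groups did not overlap, and the log2 fold change was -1.50 ± 0.05 (edgeR, adjusted p = 3.93e-19). Under IL-4+anti-CD40 Bcl2 was already low, at 24.9, 23.1, 20.7 and 21.95 CPM, and it was at 17.4, 16.3, 16.1 and 15.5 CPM with DSF. Here every DSF library was below every control, by a smaller step of -0.47 ± 0.08 (edgeR, adjusted p = 0.000454), a call that was lost when all 20 libraries shared one fit (-0.40, adjusted p = 0.305).

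Bcl2l1, which encodes the activation-induced BCL-XL, was at 240.5, 242, 249.2 and 248.7 CPM under LPS and at 124, 151, 126 and 142 CPM under LPS plus DSF. The level in all 4 DSF libraries was clearly under that of the controls, with a log2 fold change of -0.74 ± 0.05 (edgeR, adjusted p = 4.23e-13). In the IL-4+anti-CD40 libraries the values were 254, 275, 203 and 181 CPM, and 101, 90.8, 98.7 and 99.99 CPM with DSF. The control libraries spread more than the DSF libraries, and the log2 fold change of -1.22 ± 0.12 became -1.46 with replicates 1 and 2 only and -0.93 with replicates 3 and 4 only.

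Bcl2a1d, the more abundant A1 copy, was at 298, 288, 304 and 295 CPM under LPS and at 106, 128, 107 and 121 CPM under LPS plus DSF. That was a 2.37-fold lower level without overlap (log2 fold change -1.24 ± 0.05). The IL-4+anti-CD40 libraries held 259, 282, 201 and 196 CPM, and 80.2, 72.0, 93.3 and 86.0 CPM with DSF. The log2 fold change of -1.49 ± 0.12 was the largest fall of any member under this stimulus. Bcl2a1b fell by 0.93 ± 0.10 under LPS and by 1.22 ± 0.15 under IL-4+anti-CD40 on the log2 scale. Its LPS libraries included 1 at 53.4 CPM beside 3 at 84.2 to 89.4 CPM, and the 4 DSF libraries were at 35.0 to 40.3 CPM, below all of them.

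Mcl1, whose short-lived product is the main partner of NOXA, was at 1094, 1115, 1109 and 1095 CPM under LPS and at 1214, 1303, 1288 and 1333 CPM under LPS plus DSF. Under IL-4+anti-CD40 the values were 692, 698, 732 and 759 CPM, and 945, 887, 988 and 941 CPM with DSF. All DSF libraries were above all controls, by modest steps of 0.33 ± 0.04 and 0.39 ± 0.05 (edgeR, adjusted p = 2.63e-08 and 7.78e-05). Mcl1 was thus the one prosurvival member that rose, and with total counts the steps were 0.13 and 0.24 and still passed.

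Of the BH3-only members, Bcl2l11 and Pmaip1 rose by the largest steps. Bcl2l11 was at 404, 406, 445 and 443 CPM under LPS and at 987, 1027, 993 and 1001 CPM under LPS plus DSF, a 2.56-fold higher level (log2 fold change 1.35 ± 0.04, edgeR, adjusted p = 2.39e-19). IL-4+anti-CD40 gave 129, 138, 207 and 257 CPM alone, and 561, 565, 562 and 614 CPM with DSF. The controls again spread by pair, and the log2 fold change of 1.66 ± 0.18 was 2.08 with replicates 1 and 2 only and 1.36 with replicates 3 and 4 only. In neither case did the groups overlap.

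Pmaip1, whose product NOXA neutralizes MCL1 and A1, was at 47.6, 46.4, 51.5 and 50.7 CPM under LPS and at 139, 141, 144 and 149.7 CPM under LPS plus DSF. Its 3.17-fold rise (log2 fold change 1.67 ± 0.05, edgeR, adjusted p = 1.74e-20) was the largest change of any member under LPS with TMM scaling, whereas with total counts that of Bcl2 was larger (-1.71 against 1.46). The IL-4+anti-CD40 controls stood at 42.5, 42.9, 56.6 and 70.4 CPM, and at 131, 129, 135 and 126 CPM with DSF. The log2 fold change was 1.30 ± 0.14 with all libraries, 1.61 with replicates 1 and 2 only and 1.06 with replicates 3 and 4 only.

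Bbc3, a classical p53 target, moved by small steps in the first experiment. It was at 43.9, 45.3, 41.6 and 45.1 CPM under LPS and at 49.9, 46.0, 55.3 and 50.03 CPM under LPS plus DSF (log2 fold change 0.31 ± 0.06). Under IL-4+anti-CD40 it was at 27.4, 31.6, 25.1 and 35.4 CPM, and at 33.9, 37.7, 39.1 and 41.9 CPM with DSF (0.36 ± 0.11), and these groups overlapped. Both calls were lost when libraries were scaled by total counts, with log2 fold changes of 0.10 and 0.21, and when all 20 libraries shared one fit.

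Bmf, which in resting cells is held at the cytoskeleton by a dynein light chain, moved in opposite directions. Under LPS it was at 34.9, 33.5, 36.3 and 37.6 CPM, and at 21.8, 25.5, 24.6 and 22.9 CPM with DSF, lower in every library (log2 fold change -0.47 ± 0.07, edgeR, adjusted p = 6.06e-07). Under IL-4+anti-CD40 it was at 9.79, 7.52, 7.73 and 9.85 CPM, and at 15.2, 15.6, 15.2 and 15.5 CPM with DSF, higher in every library (0.83 ± 0.11, edgeR, adjusted p = 5.51e-05). The DSF groups were therefore closer to each other than the stimulated controls were.

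Bax, the pore-forming effector, was at 101, 94.9, 108 and 100.1 CPM under LPS and at 179, 173, 195 and 204 CPM under LPS plus DSF, a 2.02-fold higher level (log2 fold change 1.01 ± 0.05). After IL-4+anti-CD40 it reached 145, 143, 154 and 168 CPM, and at 210.2, 209.8, 236 and 229 CPM with DSF (0.54 ± 0.06). All DSF libraries exceeded all controls under both stimuli. Bak1, the other pore-forming effector, fell by 0.57 ± 0.07 under LPS and by 0.45 ± 0.08 under IL-4+anti-CD40.

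**Figure D2:**
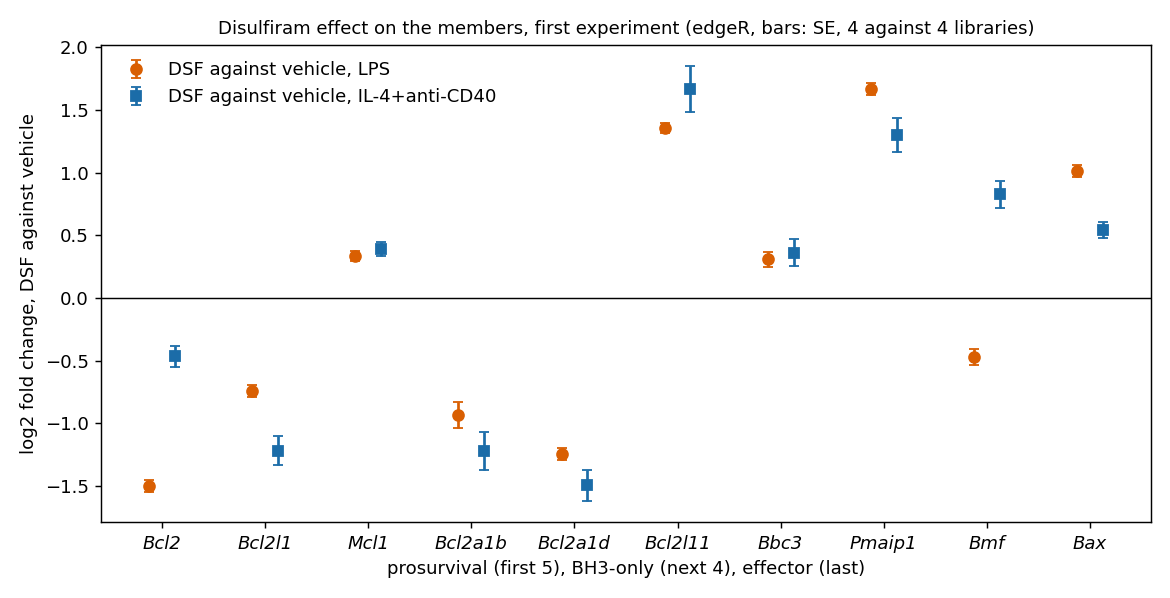
Log2 fold change of each member with DSF against the same stimulus alone, from edgeR, for LPS (circles) and IL-4+anti-CD40 (squares), with bars for SE over 4 libraries against 4. Bcl2, Bcl2l1, Bcl2a1b and Bcl2a1d lie under 0 and Mcl1, Bcl2l11, Bbc3, Pmaip1 and Bax above it for both stimuli, while Bmf lies on opposite sides.

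The difference between the DSF effects under the 2 stimuli was tested as an interaction over 16 libraries. It passed for 4 members, with Bcl2l1 and Bax higher and Bcl2 and Bmf lower under LPS, where 7.92% of all genes tested were higher and 6.96% lower. For Bcl2 the DSF effect was -1.04 ± 0.08 lower on the log2 scale under LPS than under IL-4+anti-CD40 (edgeR, adjusted p = 6.17e-08), and for Bmf -1.30 ± 0.11 (edgeR, adjusted p = 2.35e-07). For Bax it was 0.46 ± 0.09 higher under LPS (edgeR, adjusted p = 0.00106). These 3 differences also passed with either pair of replicates alone. That of Bcl2l1, 0.47 ± 0.14 (edgeR, adjusted p = 0.0239), was 0.76 with replicates 1 and 2 only and 0.15 with replicates 3 and 4 only, where it did not pass (edgeR, adjusted p = 0.338). It also missed the threshold without replicate 2 of either DSF group.

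The other 6 members did not pass the interaction test as specified. The 95% intervals of the difference were -0.19 to 0.07 for Mcl1, -0.32 to 0.21 for Bbc3 and -0.05 to 0.54 for Bcl2a1d. They were -0.18 to 0.74 for Bcl2a1b, -0.72 to 0.09 for Bcl2l11 and 0.05 to 0.66 for Pmaip1, whose adjusted p by edgeR was 0.113. The narrowest of these intervals was that of Mcl1 and the widest that of Bcl2a1b. With replicates 1 and 2 only, Bcl2a1b (0.85), Bcl2a1d (0.61) and Bcl2l11 (-0.65) passed, and with replicates 3 and 4 only Pmaip1 (0.58) passed. Bcl2l11 and Pmaip1 also passed when every gene with a count was kept (-0.33 and 0.34), Bcl2l11 without IL-4+anti-CD40 replicate 4 (-0.52), and Pmaip1 without IL-4+anti-CD40 replicate 1 or 2 (0.45 and 0.44). When all 20 libraries shared one fit, the estimate of spread then including the split unstimulated libraries, Bmf alone kept its call.

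As a description of mRNA levels by role, the summed FPKM of the 5 prosurvival members was divided by that of the 4 BH3-only members in each library. These are sums of mRNA levels, from which neither protein levels nor cell death can be read. The ratio was 8.74, 8.24, 8.40 and 8.09 under LPS and 2.73, 2.95, 2.75 and 2.94 under LPS plus DSF. Under IL-4+anti-CD40 it was 13.92, 13.98, 9.34 and 7.22, and 3.06, 2.84, 3.27 and 2.94 with DSF. The DSF libraries of both stimuli fell into the same narrow range, below every stimulated control. In unstimulated B cells the ratio was 3.35, 3.31, 9.59 and 9.40, so that replicates 1 and 2 lay near the DSF libraries and replicates 3 and 4 near the stimulated ones. The numerator went from a mean of 781 ± 23.2 to 595 ± 22.4 FPKM with DSF under LPS (SD, n = 4) and from 609 ± 73.3 to 431 ± 27.8 FPKM under IL-4+anti-CD40. The denominator went from 93.4 ± 3.31 to 209 ± 1.32 FPKM and from 57.6 ± 12.9 to 142 ± 3.73 FPKM. Without Mcl1 the prosurvival sum was 476 ± 25.1 FPKM under LPS and 215 ± 15.5 FPKM under LPS plus DSF. Whether the lower ratio with DSF bears on cell death was not tested. For cells cultured equally long, the paper reports that DSF hardly induced apoptosis and was even protective.

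**Figure D3:**
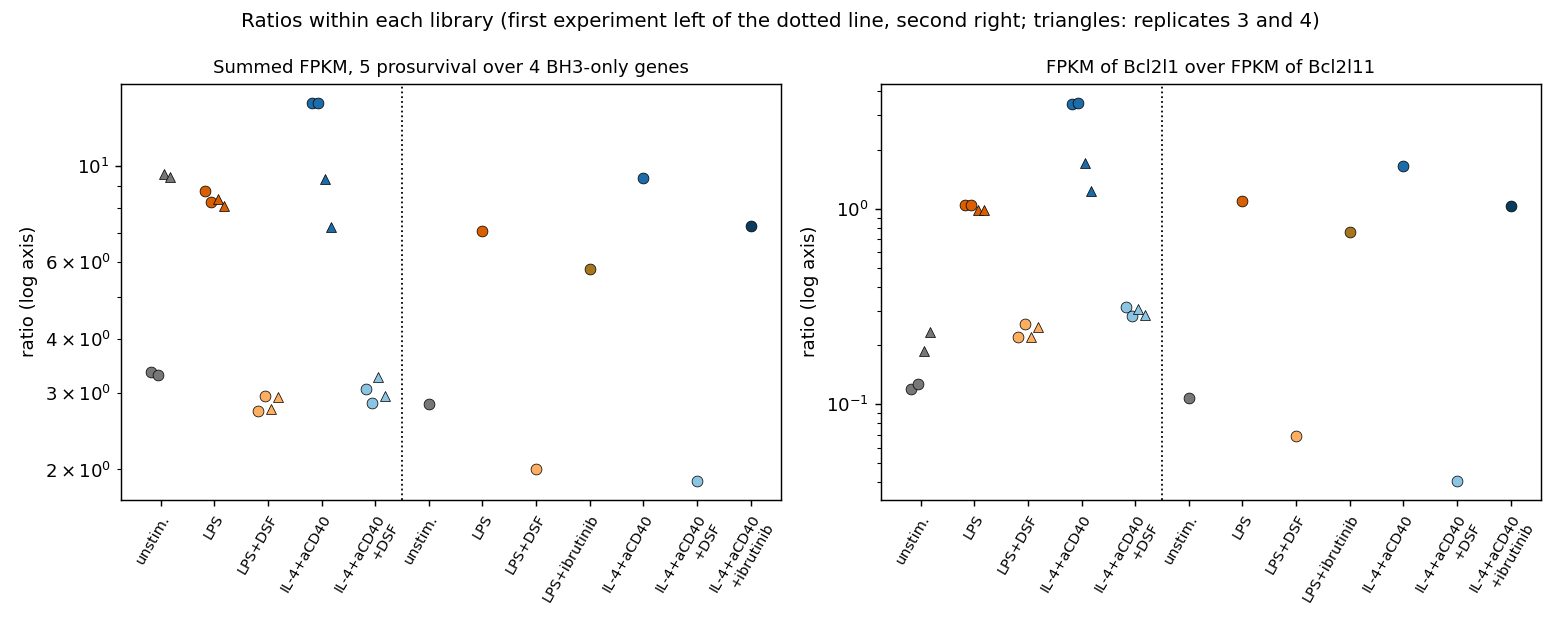
Ratio of the summed FPKM of 5 prosurvival to 4 BH3-only members (left) and of Bcl2l1 to Bcl2l11 (right) in every library, on log axes, with triangles for replicates 3 and 4 of the first experiment and the second experiment right of the dotted line. In both panels the DSF libraries lie below every stimulated library of the same experiment that had no inhibitor.

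Stimulation alone raised Bcl2l1 and both A1 copies and lowered Bmf. Under LPS, 6 members were higher than in unstimulated B cells and 1 lower, where 29.6% of all genes tested were higher and 33.3% lower. Under IL-4+anti-CD40, 5 were higher and 3 lower, against 30.4% and 32.1% of all genes. Both comparisons share the unstimulated libraries. Against unstimulated replicates 1 and 2 only, 8 members were higher and 1 lower under LPS (33.2% and 34.7% of all genes), and 5 were higher and 4 lower under IL-4+anti-CD40 (28.9% and 31.2%). Against replicates 3 and 4 only, the counts were 8 and 2 for LPS (36.9% and 38.8% of all genes), and 7 and 3 for IL-4+anti-CD40 (33.6% and 36.2%). Bcl2l1 was at 22.2, 24.1, 5.55 and 7.53 CPM before stimulation, so all stimulated libraries, at 181 CPM or more, were far above it. Its log2 fold change was 3.98 ± 0.45 under LPS and 3.95 ± 0.47 under IL-4+anti-CD40 (edgeR, adjusted p = 8.92e-05 and 0.000105). Under LPS it was 3.36 against unstimulated replicates 1 and 2 only and 5.17 against replicates 3 and 4 only.

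Bcl2a1d was at 43.4, 40.8, 11.7 and 13.4 CPM before stimulation and rose by 3.38 ± 0.43 under LPS and 3.11 ± 0.44 under IL-4+anti-CD40 on the log2 scale. Bcl2a1b rose by 3.18 ± 0.43 and 3.03 ± 0.43. Bmf was at 153, 144, 77.8 and 77.6 CPM before stimulation, above every stimulated library. Its log2 fold change was -1.73 ± 0.22 under LPS and -3.69 ± 0.26 under IL-4+anti-CD40, and it was lower against either pair alone (-2.11 and -1.19 under LPS, -4.10 and -3.16 under IL-4+anti-CD40).

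Bbc3 was higher with both stimuli, by 1.61 ± 0.41 under LPS and 1.12 ± 0.42 under IL-4+anti-CD40, from 22.5, 20.5, 6.19 and 5.996 CPM. The second call was fragile (edgeR, adjusted p = 0.0405) and was lost when any 1 of 6 libraries was left out or counts were scaled by total. Bax was higher by 0.49 ± 0.16 under LPS (edgeR, adjusted p = 0.0271) and 1.15 ± 0.17 under IL-4+anti-CD40 (edgeR, adjusted p = 0.000314), from 86.8, 83.0, 50.6 and 54.7 CPM. The LPS call of Bax did not hold with total counts (0.25) or without LPS replicate 1, 3 or 4 or unstimulated replicate 4. Mcl1 rose by 0.26 ± 0.06 under LPS, a step that shrank to 0.03 with total counts (edgeR, adjusted p = 0.63), and was lower by -0.29 ± 0.07 under IL-4+anti-CD40.

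What stimulation did to Bcl2, Bcl2l11 and Pmaip1 depended on which unstimulated pair was used. Under LPS, Bcl2 had a log2 fold change of -0.07 ± 0.44 with all libraries. It was 1.17 ± 0.05 against replicates 1 and 2 only and -0.69 ± 0.05 against replicates 3 and 4 only. Bcl2 passed the test in both of these fits, with opposite signs, and neither fit holds the spread between the pairs. Bcl2l11 was at 1.10 ± 0.59 with all libraries (edgeR, adjusted p = 0.132), but passed against either pair alone, at 0.32 against the first and 2.92 against the second, and in the fit of all 20 libraries (1.09). Under IL-4+anti-CD40 Bcl2l11 was at -0.05 ± 0.60 with all libraries, -0.86 against the first pair and 1.76 against the second, both past the threshold. Pmaip1 was at 0.44 ± 0.32 under LPS and 0.62 ± 0.35 under IL-4+anti-CD40, and against the second pair it passed under both (1.31 and 1.48). Under IL-4+anti-CD40 it also passed in the fit of all 20 libraries (0.56, edgeR, adjusted p = 0.0472). Bcl2 under IL-4+anti-CD40 kept its direction, with -2.22 ± 0.46 overall (edgeR, adjusted p = 0.00264), -1.01 against the first pair and -2.85 against the second.

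**Figure D4:**
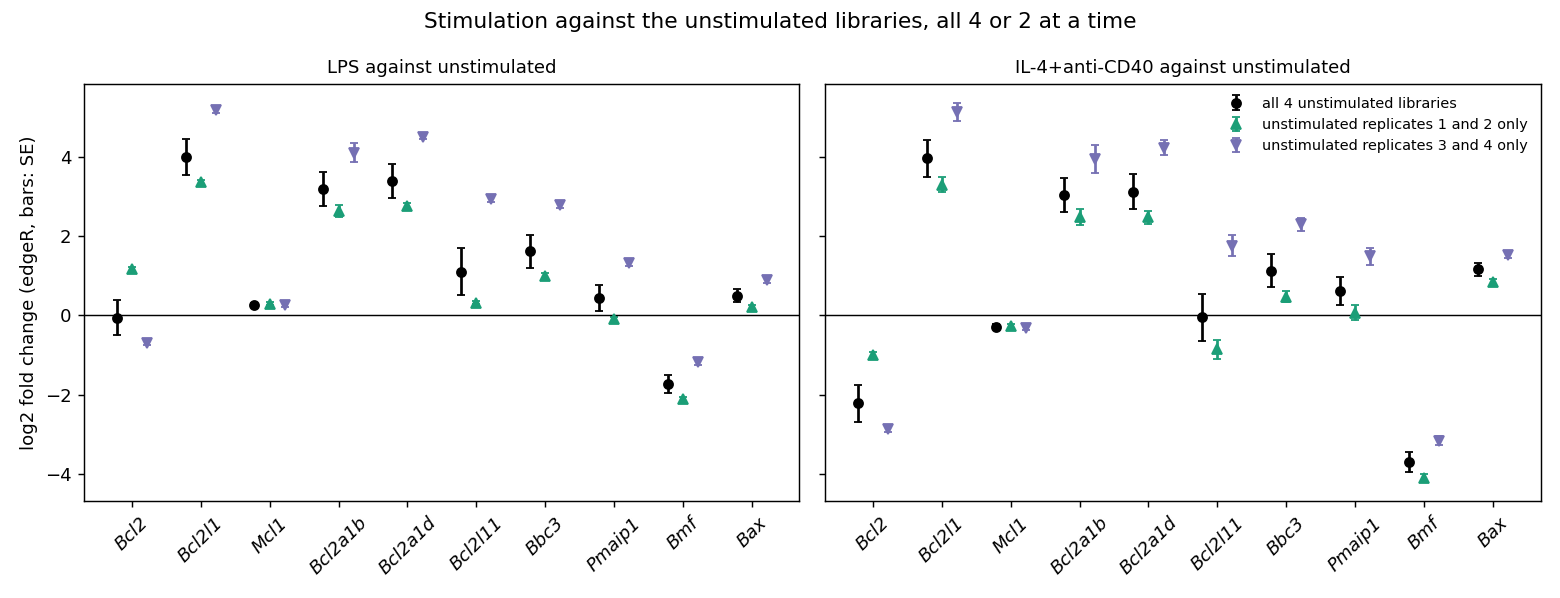
Log2 fold change of each member under LPS (left) or IL-4+anti-CD40 (right) against unstimulated B cells, from edgeR with bars for SE, using all 4 unstimulated libraries (black circles), only replicates 1 and 2 (green triangles) or only replicates 3 and 4 (purple triangles). Bcl2 under LPS and Bcl2l11 under IL-4+anti-CD40 change sign between the pairs, while Bcl2l1, Bcl2a1b, Bcl2a1d and Bmf do not.

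The stimuli were compared with each other without use of the unstimulated libraries. Under LPS, 6 members were higher than under IL-4+anti-CD40 and 1 was lower, where 22.3% of all genes tested were higher and 17.3% lower (3145 and 2439 genes, which became 2428 and 4712 with total counts). Bcl2 was higher under LPS by 2.21 ± 0.06 (edgeR, adjusted p = 2.9e-10) and Bmf by 2.02 ± 0.10 (edgeR, adjusted p = 1.87e-08). Bcl2l11 was higher by 1.21 ± 0.18, Mcl1 by 0.60 ± 0.04 and Bbc3 by 0.55 ± 0.10, the last not passing in the fit of all 20 libraries (edgeR, adjusted p = 0.155). Bax was lower under LPS by -0.61 ± 0.06 (edgeR, adjusted p = 7.75e-06). Bcl2a1d was higher by 0.33 ± 0.10 (edgeR, adjusted p = 0.0265), a call lost with total counts, in the fit of all 20 libraries, without any 1 LPS library, without IL-4+anti-CD40 replicate 3 and with replicates 1 and 2 only (0.11). Bcl2l1, Bcl2a1b and Pmaip1 did not pass, with 95% intervals of -0.15 to 0.33, -0.17 to 0.58 and -0.43 to 0.18, and their groups overlapped. The sign of Bcl2l1 turned with total counts (-0.04), and those of all 3 differed between replicates 1 and 2 only and replicates 3 and 4 only.

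The DSF groups were also compared with unstimulated B cells, where Bcl2l1, both A1 copies, Bcl2l11, Bbc3, Pmaip1 and Bax were higher and Bcl2 and Bmf lower under either stimulus. Under LPS plus DSF, 8 members were higher and 2 lower, where 34.3% of all genes tested were higher and 37.3% lower. Under IL-4+anti-CD40 plus DSF, 7 were higher and 2 lower, against 33.4% and 35.3% of all genes. Bcl2l1 was still higher by 3.21 ± 0.44 under LPS plus DSF and by 2.74 ± 0.43 under IL-4+anti-CD40 plus DSF, and Bcl2a1d by 2.11 ± 0.41 and 1.62 ± 0.41. Pmaip1, which had not passed with either stimulus alone, was higher by 2.07 ± 0.33 and 1.93 ± 0.33 (edgeR, adjusted p = 0.000446 and 0.000791), and against either unstimulated pair by at least 1.36. Bcl2l11 was higher by 2.42 ± 0.61 under LPS plus DSF and by 1.62 ± 0.59 under IL-4+anti-CD40 plus DSF (edgeR, adjusted p = 0.00576 and 0.0356). The second of these calls was lost with total counts and in 5 of the fits that left out 1 library. Bcl2 was lower by -1.59 ± 0.45 under LPS plus DSF and by -2.67 ± 0.47 under IL-4+anti-CD40 plus DSF. Mcl1 did not pass under IL-4+anti-CD40 plus DSF (0.11 ± 0.07), whereas DESeq2 called it higher (0.12, adjusted p = 0.0376) and total counts made it lower (-0.20, edgeR, adjusted p = 0.0211).

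In the second experiment each condition had 1 library, so its log2 ratios have no replicate check, and their 95% intervals are exact binomial intervals that cover counting error only. With DSF, the induced prosurvival genes were far lower than in the first experiment. Bcl2l1 was at 289 CPM under LPS and 26.8 CPM under LPS plus DSF, a log2 ratio of -3.43 (interval -3.57 to -3.30), and at 184 and 12.7 CPM under IL-4+anti-CD40, a log2 ratio of -3.84. Bcl2a1d was at 377 and 30.8 CPM under LPS (-3.61) and at 301 and 15.5 CPM under IL-4+anti-CD40 (-4.27). Bcl2a1b had log2 ratios of -3.64 and -3.66. The unstimulated library held 19.0 CPM of Bcl2l1 and 37.1 CPM of Bcl2a1d, so the DSF libraries lay near or below unstimulated levels. Whether the size of these changes differs between the experiments was not tested, since the second has no replicates.

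Past 2-fold with DSF were 1 member higher and 4 lower under LPS, where 40.7% of all genes were past 2-fold either way, and 3 higher and 3 lower under IL-4+anti-CD40, where 42.7% were. Bax was at 114 CPM under LPS and 229.6 CPM under LPS plus DSF, a log2 ratio of 1.01. Bcl2l11 rose from 463 to 684 CPM under LPS (log2 ratio 0.56) and from 195 to 549 CPM under IL-4+anti-CD40 (1.49). Pmaip1 had log2 ratios of 0.67 and 1.04. Bbc3 went from 56.7 to 95.1 CPM under LPS (log2 ratio 0.75, interval 0.63 to 0.86) and from 45.6 to 79.6 CPM under IL-4+anti-CD40 (0.80, interval 0.67 to 0.93), steps larger than in the first experiment. Bmf again had opposite signs, at -0.99 (interval -1.12 to -0.86) under LPS and 1.81 (interval 1.57 to 2.09) under IL-4+anti-CD40. Bcl2 was at -1.37 under LPS and -0.02 (interval -0.21 to 0.17) under IL-4+anti-CD40. Mcl1 was at 0.16 under LPS, a ratio that turned to -0.04 with total counts, and at 0.55 under IL-4+anti-CD40.

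Ibrutinib at the same dose moved no member past 2-fold, where 5.28% of all genes were past 2-fold under LPS and 3.94% under IL-4+anti-CD40. Its largest ratios were those of Bcl2l11, from 463 to 709.9 CPM under LPS (log2 ratio 0.62, interval 0.58 to 0.66) and from 195 to 304 CPM under IL-4+anti-CD40 (0.64, interval 0.58 to 0.70). Under LPS the ibrutinib ratio of Bcl2l11 was close to that of DSF, whereas under IL-4+anti-CD40 that of DSF was larger. For Bcl2l1 the ibrutinib ratios were 0.09 and -0.03, for Bcl2a1d -0.06 and -0.22, for Pmaip1 -0.16 and -0.14 and for Bax -0.11 and -0.14. Bmf under IL-4+anti-CD40 was at 0.45 (interval 0.17 to 0.73), a smaller rise than the 1.81 of DSF. The ratio of prosurvival to BH3-only FPKM was 7.08 under LPS, 5.79 under LPS plus ibrutinib and 2.00 under LPS plus DSF. Under IL-4+anti-CD40 it was 9.35, 7.25 and 1.88 in the same order.

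**Figure D5:**
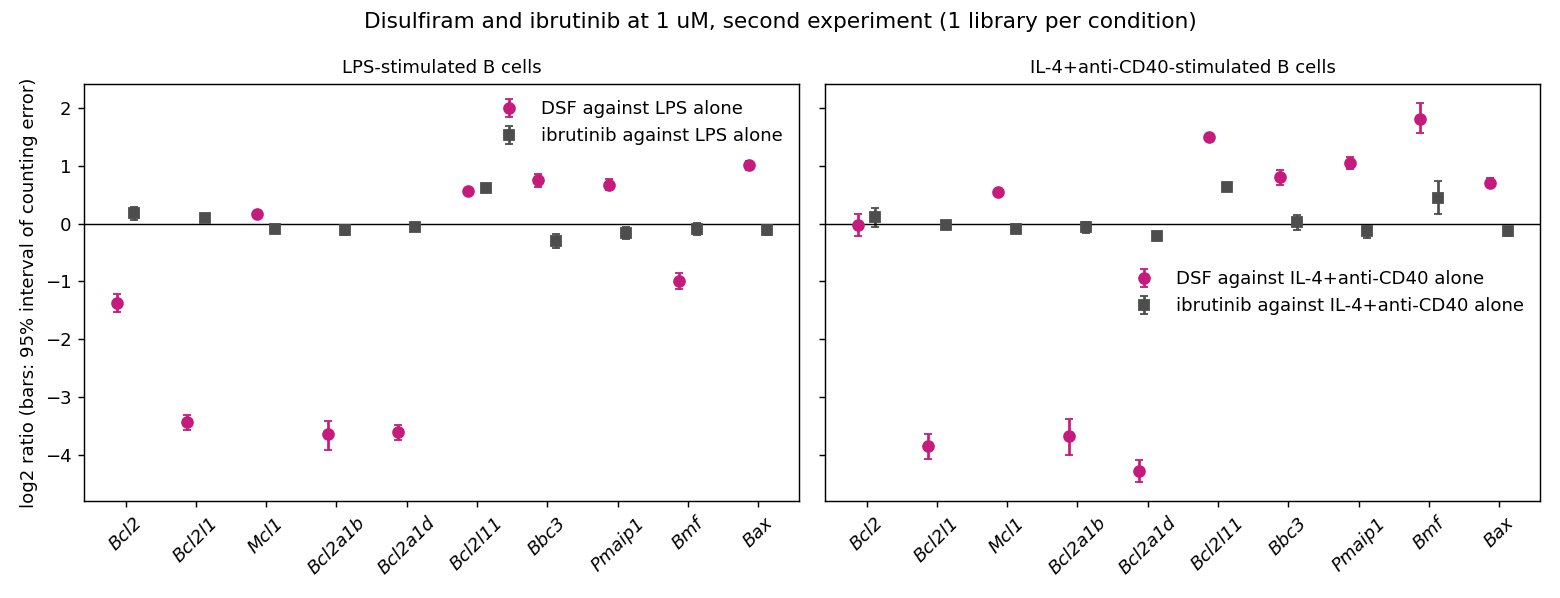
Log2 ratio of each member with DSF (circles) or ibrutinib (squares) against the same stimulus alone in the second experiment, with 1 library per condition, for LPS (left) and IL-4+anti-CD40 (right), with bars for 95% intervals of counting error. Bcl2l1, Bcl2a1b and Bcl2a1d lie between -3.43 and -4.27 with DSF and between -0.22 and 0.09 with ibrutinib.

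Stimulation alone in the second experiment raised Bcl2l1 (log2 ratios 3.92 under LPS and 3.27 under IL-4+anti-CD40), Bcl2a1b (3.26 and 2.98) and Bcl2a1d (3.34 and 3.02) past 2-fold. These 3 were the members past 2-fold under LPS, where 18.5% of all genes were, and Bmf joined them under IL-4+anti-CD40 (-3.36), where 24.4% were. Bmf under LPS was at -0.30, a smaller step than in the first experiment. Bcl2l11 was at 0.59 and -0.66 and Bcl2 at 0.60 and -0.67, both with the signs that the first experiment gave against unstimulated replicates 1 and 2.

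Upstream sequence was read from RefSeq (GRCm38.p6) for 9 of the 10 members (Pmaip1 was not searched), over 16 windows of 250 bases before to 50 bases after a start. These windows are shown for the A1 copies, which fell together, and for Bcl2l11, which rose, up to the last base before the gene start in the deposited table, 5′ to 3′ on the gene's strand. In capitals are a match to the loose pattern TGANTCA, searched for as AP-1, in the A1 copies and a FOXO motif in Bcl2l11 (TGTTTAC, here on the opposite strand).
Bcl2a1b, chr9:89199023-89199208, plus strand: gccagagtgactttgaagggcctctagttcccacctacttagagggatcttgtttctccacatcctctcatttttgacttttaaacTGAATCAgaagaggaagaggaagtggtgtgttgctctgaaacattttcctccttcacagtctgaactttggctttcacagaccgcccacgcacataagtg
Bcl2a1d, chr9:88731915-88732100, minus strand: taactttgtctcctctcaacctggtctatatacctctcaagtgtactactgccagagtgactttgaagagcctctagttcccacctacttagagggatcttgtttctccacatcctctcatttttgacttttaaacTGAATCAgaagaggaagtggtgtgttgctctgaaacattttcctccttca
Bcl2l11, chr2:128125788-128126037, plus strand: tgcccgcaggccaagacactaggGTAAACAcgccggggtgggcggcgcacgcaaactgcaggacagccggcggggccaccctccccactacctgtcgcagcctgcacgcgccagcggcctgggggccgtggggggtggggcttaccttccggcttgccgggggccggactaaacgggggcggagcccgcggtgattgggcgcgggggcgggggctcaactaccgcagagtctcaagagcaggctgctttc
Both strands were searched. The pattern TGANTCA occurs in 2 of the 16 windows, those of Bcl2a1b and Bcl2a1d, and in 7.81% of all 32851 promoter windows. Both A1 matches read TGAATCA, with A at the open position N, so they are not called AP-1 sites here. Of the 186 bases shown for each A1 copy, 135 lie in matching blocks, so these are not 2 separate finds. The 2 windows start and end at different points of the shared sequence, so 135 of 186 understates how alike that sequence is. The FOXO motif occurs in windows of Bcl2l11 and Bbc3 and in 3.65% of all windows. The NF-κB motif occurs in windows of Bcl2l1, Bbc3 and Bmf (4.51% of all windows), the E-box CACGTG in Bbc3 and Bax (7.15%) and a p53 half-site in Bax and Bmf (8.36%). None of these 16 windows holds the cAMP response element TGACGTCA (1.79% of all windows), the ATF4-CHOP motif TGATGNAAT (0.965%), the heat shock motif GAANNTTC (7.86%) or the STAT motif TTCNNNGAA (8.3%). A match is a run of letters in this window and not a measured binding site.

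Of 16 other listed BCL2 family genes, 10 were expressed enough to be tested under DSF, of which 3 rose and 5 fell under LPS and 3 rose and 4 fell under IL-4+anti-CD40. Of all genes tested, 35.1% were higher and 36% lower in the first of these comparisons and 30.1% and 31.6% in the second, shares against which all the list counts given here are to be read. Their median log2 fold changes were -0.19 and 0.00, against 0.00 and -0.02 for all genes tested. By a rule on size and direction, the genes named from this list were Bcl2l15 (1.55 ± 0.26 and 1.93 ± 0.44, at no more than 2.37 CPM), Bcl2l12 (-0.94 and -0.83), the mitophagy receptor gene Bnip3l (0.24 and 0.91) and Bak1. The executing machinery, 20 genes of caspases, apoptosome and their inhibitors, had 4 higher and 9 lower under LPS and 5 higher and 9 lower under IL-4+anti-CD40. Named from it by the same rule were the death receptor adaptor gene Fadd (-1.39 ± 0.11 and -1.09 ± 0.15), Birc5, which encodes survivin (1.47 ± 0.13 and 0.85 ± 0.15), Aifm1 (-1.14 and -0.90) and Birc3, an inhibitor of apoptosis (-0.86 ± 0.04 and -1.07 ± 0.07).

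Of 16 listed genes of transcription factors that act on the family, 15 were tested. With DSF, 7 were higher and 5 lower under LPS (35.1% and 36% of all genes tested). Under IL-4+anti-CD40, 4 were higher and 7 lower (30.1% and 31.6%). The largest step was that of Ddit3, which encodes the stress factor CHOP and was at 20.8 ± 1.71 CPM under LPS and 77.6 ± 6.06 CPM under LPS plus DSF (SD, n = 4). Its log2 fold change was 2.01 ± 0.06 under LPS and 1.24 ± 0.10 under IL-4+anti-CD40 (edgeR, adjusted p = 4.02e-19 and 2.38e-06). Atf4, which lies upstream of it in the stress response, rose by 0.56 ± 0.04 and 0.39 ± 0.06. Stat3 (-0.87 ± 0.04 and -0.52 ± 0.05) and Myc (-0.44 ± 0.04 and -0.63 ± 0.07) fell under both stimuli. Trp53 itself was at 0.10 under LPS and -0.04 under IL-4+anti-CD40 on the log2 scale.

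Among the members, the A1 copies and Bcl2l1 had the most similar levels across the 20 libraries (Pearson r of log2 CPM 0.98 for Bcl2a1b with Bcl2a1d, 0.98 for Bcl2l1 with Bcl2a1b and 0.97 for Bcl2l1 with Bcl2a1d). The pair furthest apart was Bcl2 and Bax, at -0.87. Of 9744 other genes, those most like Bcl2l1 were Nol10 and Ctps (both 0.995), and those most like Bcl2a1d were Grwd1 and Naf1 (0.995 and 0.993). For Pmaip1 they were Map2k3 and Mir22hg (both 0.99), for Bcl2l11 Rgs1 and Igf1r (0.99 and 0.98) and for Bax Plk3 and Fabp5 (both 0.99). For Bcl2 they were Unc93b1 and Zfp318 (0.99 and 0.98), for Mcl1 H2-T10 and Aida (both 0.98), for Bcl2a1b Chchd4 and Naf1 (0.99 and 0.98), for Bbc3 Fbxo11 and Inf2 (both 0.98) and for Bmf Nuak2 (0.98). In the 7 libraries of the second experiment r was 0.98 and 0.98 for the genes most like Pmaip1, 0.99 and 0.98 for those most like Bax, but -0.43 for Mcl1 with H2-T10. It was also lower for Bbc3 (0.62 with Fbxo11, 0.31 with Inf2) and Bcl2l11 (0.66 with Rgs1, 0.75 with Igf1r). For Bcl2 with Unc93b1 it was 0.72 and for Mcl1 with Aida 0.66. The other pairs named here were at 0.85 to 0.98. These coefficients are descriptions over libraries that share groups, scaling and the split of the unstimulated samples.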

How the data were processed

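The authors deposited read counts per gene (whole numbers, without normalization), made by mapping reads to mm10 with HISAT2 2.0.5 and counting with featureCounts 1.5.0-p3, per the submitters' processing notes, and the authors deposited FPKM beside them. The annotation release is not given in the sources used here, and positions match GENCODE vM21 for all members but Pmaip1. The paper and the labels give different cell numbers per well.

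The counts were tested with edgeR 4.0.16 in R 4.3.3 (TMM, filterByExpr, quasi-likelihood test, Benjamini-Hochberg, threshold 0.05) on the 8 libraries of each comparison, or 16 for the interaction. Intervals use the SE and the degrees of freedom of that test. Levels are CPM after TMM over the 20 libraries. The second experiment was TMM-normalized alone, with a prior count of 2 and a mean of at least 10 counts. Alternatives were DESeq2 1.42.0, other scaling, other filters, a replicate block, one fit of all 20 libraries and leaving out each library. Leaving out pairs of replicates was chosen after seeing the data. The fit was tested on simulated data first. The members, gene lists and motifs were chosen with earlier results of these data known. Named genes of a list were up to 4 with the largest mean absolute log2 fold change over both DSF comparisons among those called in the same direction in both. For likeness, the 2 genes with the highest Pearson correlation of log2 (CPM + 1) were taken among genes with a mean of at least 5 CPM, of which 1 is not reported here. In no comparison did every same-numbered pair of libraries deviate together (correlation over 0.1), so the main fits are unpaired.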

Additional observations from a re-analysis of the deposited data

Results flagged for a closer look

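Of 50 groups of 4 libraries (10 members in 5 groups), 2 held a library farther from the others than Dixon's criterion allows, a number that chance alone can give at about 1 in 20 groups. Bcl2a1b in LPS replicate 2 was at 53.4 CPM, whereas the other LPS libraries were at 84.2 to 89.4 CPM, and Bcl2a1d in the same library was not set apart. Bcl2l11 in replicate 4 of IL-4+anti-CD40 with DSF was at 614 CPM, whereas the others were at 561 to 565 CPM.

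The effect of DSF differed between LPS and IL-4+anti-CD40 by the interaction test for 4 members. On the log2 scale the difference was -1.04 for Bcl2, -1.30 for Bmf, 0.46 for Bax and 0.47 for Bcl2l1. The difference of Bcl2l1 was the only one of the 4 that missed the threshold with replicates 3 and 4 alone.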

How the results depend on the processing

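Over the comparisons of the first experiment, the alternatives for single members gave 1359 values with the same direction and call, 39 that lost the call, 21 that gained it and 21 that changed sign. Every change of sign was in a comparison that had not passed with all libraries. For LPS against unstimulated B cells, Bcl2 turned to 0.22 with a replicate block and to 1.17 without unstimulated replicates 3 and 4, and leaving out 1 library gave -0.30 to 0.27, while Pmaip1 turned to -0.10 without that pair. For IL-4+anti-CD40 against unstimulated B cells, Bcl2l11 turned to 0.39 with the block and 1.76 without unstimulated replicates 1 and 2, and leaving out 1 library gave -0.39 to 0.35. Between the stimuli, Bcl2l1 turned to -0.043 with total counts and -0.14 without replicates 3 and 4 of both groups, where Bcl2a1b was at -0.20 and Pmaip1 at 0.13, and leaving out 1 library gave -0.0070 to 0.19 for Bcl2l1 and -0.23 to 0.036 for Pmaip1. For IL-4+anti-CD40 plus DSF against unstimulated B cells, Mcl1 turned to -0.20 with total counts. For the interaction, Bcl2a1b and Bcl2a1d turned to -0.30 and -0.14 without replicates 1 and 2, and leaving out 1 library gave -0.14 to 0.018 for Bbc3.

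Member counts changed by over 1.5 times in few fits. Lower members were 2 under LPS without unstimulated replicates 1 and 2 (38.8% of all genes, against 33.3% with all libraries). Between the stimuli 2 were lower without either pair, and in each comparison 1 was lower with all libraries. Of all genes, 2242 of 14253 were lower between the stimuli without replicates 1 and 2 and 3116 of 14286 without replicates 3 and 4. With all libraries it was 2439 of 14078. The interaction had 0 members higher and 1 lower with all 20 libraries in one fit, where 205 of 15575 genes were higher and 710 lower. It had 4 members higher without replicates 3 and 4, where 996 of 15280 genes were. With 1 library left out, 1 to 3 were higher (1 without replicate 2 of either DSF group, 3 without IL-4+anti-CD40 replicate 1 or 2). In those fits 954 to 1261 genes were higher, against 1199 of 15130 with all 16 libraries. The causes were not tested. Scaling by total counts put the median log2 fold change of all genes between -0.43 and -0.14 in the 7 pairwise comparisons. Against unstimulated B cells it turned the split of all genes from 4283 higher and 4818 lower to 2903 and 6387 for LPS, from 4389 and 4633 to 3454 and 5574 for IL-4+anti-CD40, from 5031 and 5464 to 3151 and 7453 for LPS plus DSF and from 4901 and 5178 to 3117 and 6760 for IL-4+anti-CD40 plus DSF, and for the interaction from 1199 and 1053 to 826 and 1423. Of the ratios in the second experiment, 208 stayed within their counting interval and 32 moved, all 32 with total counts. The replicate block changed no call of a member and no other sign, and correlations of same-numbered deviations were between -0.09 and 0.37. The highest, 0.37, were those of replicates 1 and 4 for DSF with IL-4+anti-CD40, where replicate 2 was at -0.00068 and replicate 3 at -0.05, so no comparison was treated as paired. There DSF replicate 1 was also at 0.32 with control 2 and at -0.23 and -0.41 with controls 3 and 4. DSF replicate 4 was at 0.24 with control 3 and at -0.39 and -0.25 with controls 1 and 2. DSF replicates 2 and 3 had no correlation over 0.17. A check of same-numbered libraries does not cover such a split by pair.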

Other observations

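Of 12 listed genes whose products set the stability or modification of MCL1, BIM and BMF protein, 5 were higher and 4 lower with DSF under LPS. Under IL-4+anti-CD40 4 were higher and 4 lower. Of all genes tested, 35.1% were higher and 36% lower under LPS, and 30.1% and 31.6% under IL-4+anti-CD40, so these counts set the list apart little. The FPKM ratio of Mcl1 to Pmaip1, whose products bind each other, was 16.7 to 18.6 with LPS and 6.77 to 7.16 with LPS plus DSF, and 8.34 to 12.6 with IL-4+anti-CD40 and 5.34 to 5.79 with DSF. Both genes rose with DSF, so the ratio fell although Mcl1 was higher. The ratio of Bcl2l1 to Bcl2 FPKM was 0.98 and 1.06 in unstimulated replicates 1 and 2, 0.07 and 0.09 in replicates 3 and 4, 4.39 to 4.85 with LPS and 16.5 to 23.8 with IL-4+anti-CD40.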
